A study of Oryza sativa with 6 samples.

Results

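The genes described here encode the machinery that opens chromosomal DNA and copies it at the replication fork, and their transcripts were followed in rice seeds with and without silencing of *OsMADS29*. The set held *OsMCM2*, *OsMCM4*, *OsPCNA* and *OsRPA32*, together with every other gene that had a probe set of its own on the array and was named, with or without the prefix Os, as MCM, ORC, RPA or RFC followed by a number. This gave 26 genes of the 17905 that could be paired with a probe set, 4 of them named outright and 22 added by family name. *OsORC6* also bears such a name, but no probe set was paired with it alone and it was not analysed here. The 4 genes named outright were chosen because of their values in this same comparison, so their values are given as a description and without a test.

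Whole-seed RNA of variety PB1, taken in the S3 stage (5 to 10 days after pollination), was profiled on 6 Affymetrix rice genome arrays. Of these, 3 held RNA from wild-type plants (WT) and 3 held RNA from plants in which an RNA interference construct silenced *OsMADS29* (MADS29_KD), a B-sister MADS-box transcription factor gene active in the seed. All 6 samples share the variety, the tissue and the stage, and no other treatment is named. The day of each sample within the stage is not given. The promoter of the construct is not given in the sources used here, nor is it stated whether the MADS29_KD samples came from separate lines or plants, so p-values measure only the spread between these samples.

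A replication origin is first bound by the origin recognition complex (ORC), which helps to load the MCM2–7 ring, the core of the helicase that later unwinds the DNA. Replication protein A (RPA) coats the exposed strands, and replication factor C (RFC) opens the sliding clamp PCNA and closes it around DNA, where the clamp holds the polymerases and many partner proteins. In the cereal seed these genes are used both for ordinary cell division and for endoreduplication, in which endosperm nuclei copy their DNA without dividing.

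Levels are given as the log2 of the signal of a probe set, with 1 probe set for each gene, and differences as MADS29_KD minus WT on that scale with the standard error of the limma fit. A gene was called lower or higher at an adjusted p under 0.05, after Benjamini-Hochberg adjustment over 57194 probe sets. A signal was counted as background when it did not exceed the 95th percentile of probe sets for sequences foreign to rice, which lay between 2.78 and 2.92 on the 6 arrays. Across probe sets, r was 0.990 to 0.998 between replicate arrays and 0.955 to 0.963 between a WT and a MADS29_KD array. *OsMADS29* itself read 7.16, 6.60 and 7.30 in WT and 5.17, 5.11 and 4.90 in MADS29_KD, a difference of −1.96 ± 0.21 (adjusted p = 0.00725, limma). The exact two-sided permutation p was 0.10, the smallest that 3 arrays against 3 can give, and the silenced gene was left at 25.7% of its WT level. WT replicate 2 and MADS29_KD replicate 1 stood apart in the probe set for the 5′ end of the actin control transcript, which was at background on them (2.33 and 2.75) and at 5.86 to 6.42 on the other arrays.

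Transcripts of the replication fork were lower in MADS29_KD seeds in most of the set, and none was called higher. Among the 22 genes added by family name, 12 were called lower, 0 higher and 10 were not called. Over all genes 14.8% were called lower (6.28% of all probe sets) and 10.8% higher, and among the 12915 genes above background on at least 3 arrays 20.5% were called lower. A fall of at least 2-fold went with the call in 9 of the 22, against 5.92% of all genes and 8.21% of those above background. In 17 of the 22 every MADS29_KD array lay below every WT array, against 26.8% of all genes and 35.8% of those above background. The median difference over the 26 genes was −1.02, the 4 chosen ones included, or −0.94 with 3 genes whose MADS29_KD arrays were all at background held at their bound. It was −0.74 over the 22 tested genes and 0.01 over all genes. These are bulk samples, in which fewer dividing cells and less RNA per cell cannot be told apart. A difference in seed age within the S3 stage was not tested either, as the day of each sample is not given.

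**Figure D1:**
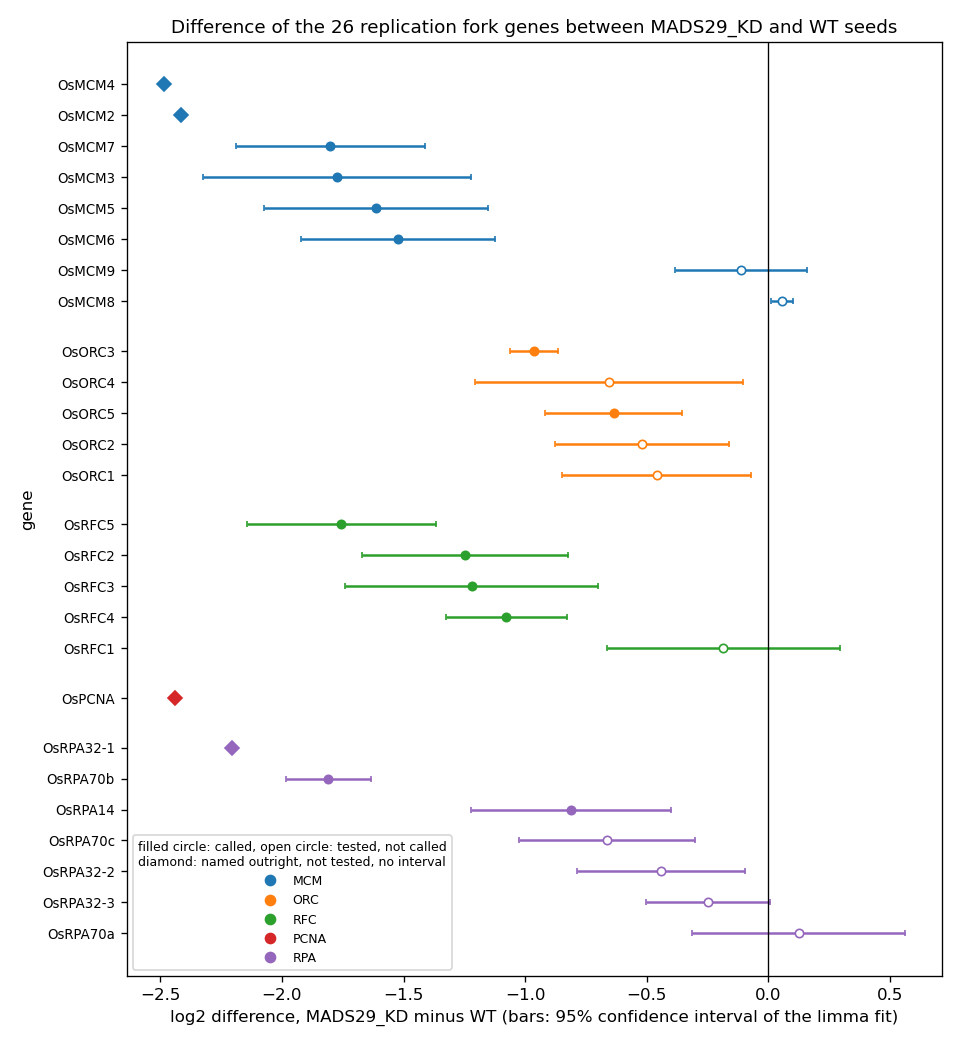
Log2 difference between MADS29_KD and WT seeds for each of the 26 genes, grouped by complex. Circles carry the 95% confidence interval of the limma fit and are filled where the gene was called, and diamonds are the 4 genes named outright, shown without an interval. The points run from −2.49 (*OsMCM4*) to 0.12 (*OsRPA70a*), and the filled circles all lie to the left of 0.

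The plot of differences by complex is read here without the 4 genes named outright, which were chosen for their fall, and differences between complexes were not tested. The 4 genes of the MCM2–7 ring that were not chosen had a median of −1.69, and the 4 small-subunit genes of the clamp loader, *OsRFC2* to *OsRFC5*, had a median of −1.23. The fitted differences of the 5 ORC genes lay between −0.96 and −0.46, and all of these genes but *OsORC2* read near background in WT. The 6 RPA genes that were not chosen were spread from −1.81 to 0.12.

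All 6 genes of the MCM2–7 helicase ring were lower in MADS29_KD seeds, while *OsMCM8* and *OsMCM9*, outside that ring, were not called. *OsMCM2* (gene ID 4350526) read 7.36, 7.44 and 7.31 in the WT arrays and 5.21, 4.88 and 4.77 in the MADS29_KD arrays, a difference of −2.42 ± 0.13 or 5.34-fold lower. *OsMCM4* (107275673), a subunit of the catalytic core of the ring, read 5.68, 5.88 and 5.76 against 3.35, 3.22 and 3.28, which is −2.49 ± 0.06 or 5.60-fold lower. In both genes the arrays of a group lay close together and the groups were well apart, and both genes were chosen for their fall.

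The other 4 subunits of the ring were not used in that choice, and each was called lower. *OsMCM7* (4352514), a partner of *OsMCM4* and *OsMCM6* in the ring's core, read 5.36, 5.74 and 5.20 in WT and 3.63, 3.64 and 3.63 in MADS29_KD. The 3 MADS29_KD arrays were almost equal and all lay below WT. The difference was −1.80 ± 0.15, 3.48-fold lower (adjusted p = 0.00337). *OsMCM3* (4339099) read 5.53, 6.09 and 5.66 against 4.28, 3.74 and 3.93, a difference of −1.77 ± 0.21 (adjusted p = 0.00971). The WT array with the highest value was replicate 2 and the MADS29_KD array with the highest value was replicate 1, and the groups did not overlap.

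*OsMCM5* (4331016), which joins *OsMCM2* at the gate where the ring opens, read 5.21, 5.55 and 4.97 in WT and 3.81, 3.56 and 3.52 in MADS29_KD, a difference of −1.61 ± 0.18 (adjusted p = 0.00749). *OsMCM6* (4338176) read 4.43, 4.47 and 4.73 against 3.27, 2.79 and 3.00, or −1.52 ± 0.15 (adjusted p = 0.00592). Its WT arrays were nearer to background than those of the other ring genes, and 1 of its 3 MADS29_KD arrays was at background. The 4 tested ring genes thus fell within a narrow range, by 2.87-fold to 3.48-fold, and their calls held whichever array was left out.

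*OsMCM8* (4339038) and *OsMCM9* (4340503) are relatives of the ring subunits that act together in recombination repair in animals. *OsMCM8* was at background on all 6 arrays, at 2.62 to 2.66 in WT and 2.67 to 2.72 in MADS29_KD, so its level could not be compared. *OsMCM9* read 3.29, 3.50 and 3.47 in WT and 3.17, 3.49 and 3.26 in MADS29_KD, and the groups overlapped. The first probe set differed by −0.11, with a 95% interval from −0.38 to 0.16 (adjusted p = 0.424). It read so near background in WT that a fall of the size seen in the ring could not have been read from it. Within each array, the mean log2 signal of the 6 ring genes stood 2.30, 2.36 and 2.14 above that of *OsMCM9* in WT and 0.75, 0.15 and 0.43 above it in MADS29_KD. This ratio includes the 2 chosen genes and is given without a test. It shows unequal change of signal only, with *OsMCM9* near background.

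**Figure D2:**
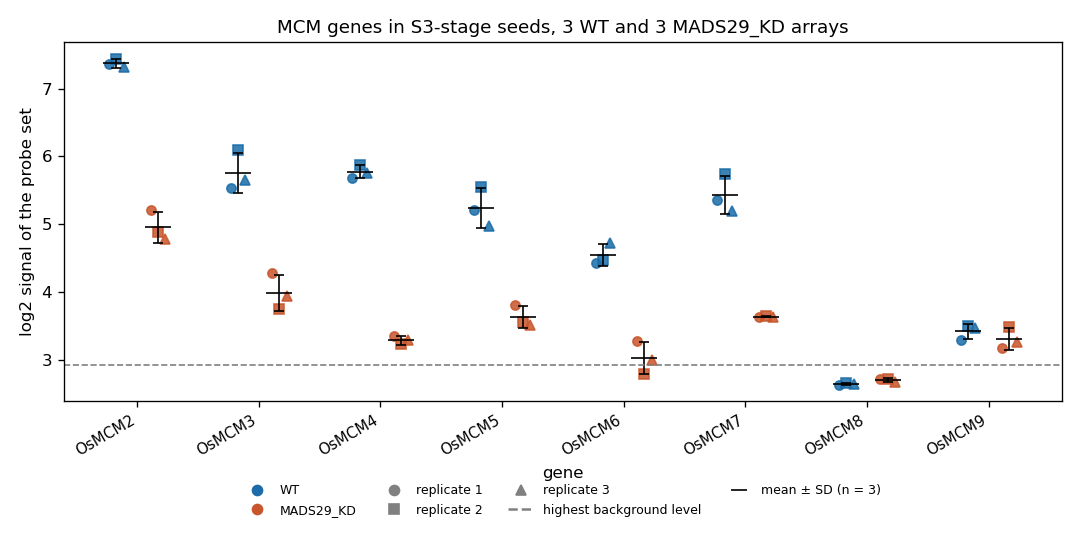
Log2 signal of the 8 MCM genes on each array, with WT in blue, MADS29_KD in orange, a symbol for each replicate, and the mean and SD of 3 arrays as black bars. The dashed line is the highest background level, 2.92. The groups are separate for *OsMCM2* to *OsMCM7*, overlap for *OsMCM9*, and lie under the line for *OsMCM8*.

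The origin recognition complex showed smaller fitted differences, in the same direction for all 5 genes. All of these genes but *OsORC2* read near background in WT, which limits the fall that can be read. Every MADS29_KD array was below every WT array in each of the 5 genes, and 2 of the 5 were called lower. *OsORC3* (4348571) read 3.65, 3.62 and 3.55 in WT and was at background on the 3 MADS29_KD arrays, at 2.70, 2.62 and 2.61. It was at least 1.63-fold lower, measured against the background level (adjusted p = 0.000517). Its groups did not overlap, and the small spread of its MADS29_KD arrays is that of values at background.

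*OsORC5* (4334180), an ATPase-family subunit which the gene table also lists under the name *OsORC1*, read 2.99, 3.10 and 3.39 in WT and 2.53, 2.52 and 2.53 in MADS29_KD. Its MADS29_KD arrays were all at background and its WT arrays only just above it, so that it was at least 1.20-fold lower (adjusted p = 0.0279). This call did not hold without WT replicate 2 (adjusted p = 0.0712) or without MADS29_KD replicate 1, 2 or 3 (0.0826, 0.0998 and 0.0909), nor on the 4 arrays with alike 5′ actin signal (0.1503).

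The other ORC genes lay lower in every MADS29_KD array without passing the test. *OsORC1* (4340349), the largest subunit and an ATPase, read 3.43, 3.51 and 3.52 against 3.20, 3.18 and 2.71, a difference of −0.46 ± 0.15 (adjusted p = 0.130). Its lowest array, MADS29_KD replicate 3, was at background, and without that array the gene was called lower (−0.30, adjusted p = 0.0244). *OsORC2* (4331860) read 5.56, 5.89 and 5.62 against 5.39, 5.04 and 5.09, or −0.52 ± 0.14 (adjusted p = 0.0891). Its highest MADS29_KD array, replicate 1, came near to the lowest WT array. *OsORC4* (4324139) read 3.90, 4.22 and 3.81 against 3.71, 3.15 and 3.11, or −0.66 ± 0.21 (adjusted p = 0.130). It was called lower without MADS29_KD replicate 1, its highest MADS29_KD array (−0.85, adjusted p = 0.0498). A second probe set of *OsORC4* differed by −0.41 (adjusted p = 0.191).

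The clamp loader separated into a large subunit that was not called and small subunits that were. *OsRFC1* (4350754), which encodes the large subunit particular to the replicative loader, read 5.41, 5.27 and 5.44 in WT and 5.57, 5.07 and 4.93 in MADS29_KD. The highest array of all was MADS29_KD replicate 1, so the groups overlapped, and the other MADS29_KD arrays lay below every WT array. The difference was −0.18 with a 95% interval from −0.66 to 0.29 (adjusted p = 0.452). In the 15 alternative fits the difference lay between −0.43 and −0.05, and the gene was never called (lowest adjusted p 0.0505).

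The 4 small subunits, which in yeast and animals also serve in loaders with other large subunits, all fell by more than 2-fold. *OsRFC5* (4334389) read 6.02, 6.16 and 5.92 in WT and 4.52, 4.02 and 4.29 in MADS29_KD, 3.38-fold lower (SE 0.15 on the log2 scale, adjusted p = 0.00363). *OsRFC4* (4336704) read 5.62, 5.95 and 5.72 against 4.72, 4.72 and 4.62, or −1.08 ± 0.10 (adjusted p = 0.00401). In both genes the lowest WT array lay well above the highest MADS29_KD array.

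*OsRFC2* (4351654) read 5.90, 6.04 and 5.99 in WT and 5.05, 4.45 and 4.69 in MADS29_KD, a difference of −1.25 ± 0.16 (adjusted p = 0.0126). *OsRFC3* (4330895) read 6.18, 6.20 and 5.98 against 5.02, 5.18 and 4.50, or −1.22 ± 0.20 (adjusted p = 0.0247). Neither gene's groups overlapped, but the calls were sensitive to the number of arrays. That of *OsRFC2* did not hold without WT replicate 1 (adjusted p = 0.0524), WT replicate 3 (0.0636) or MADS29_KD replicate 3 (0.0542). That of *OsRFC3* did not hold without any of the WT arrays (0.0982, 0.0791 and 0.0803 for replicates 1, 2 and 3) or without MADS29_KD replicate 1 (0.0625), nor on the 4 arrays with alike 5′ actin signal (0.139). The differences themselves stayed between −1.29 and −1.18 in these fits.

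Within each array, the mean of *OsRFC2* to *OsRFC5* stood above *OsRFC1* by 0.52, 0.82 and 0.46 on the log2 scale in WT and below it by −0.74, −0.47 and −0.41 in MADS29_KD. The ratio changed by −1.14 with no overlap between groups. Since it compares probe sets, its sign says nothing of which transcript was more abundant, and it was not tested.

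*OsPCNA* (4331062), the sliding clamp that the loader closes around DNA, read 7.70, 8.05 and 7.68 in WT and 5.34, 5.51 and 5.27 in MADS29_KD. WT replicate 2 and MADS29_KD replicate 2 were the highest of their groups, and the groups were far apart. The difference was −2.44 ± 0.13, or 5.42-fold lower, and the gene was named for it.

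**Figure D3:**
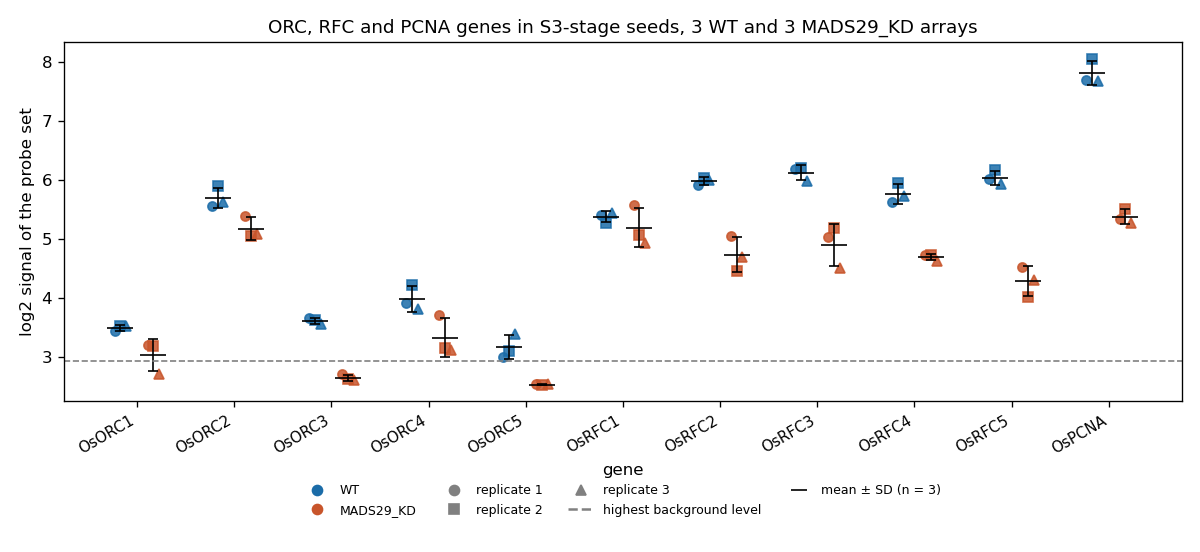
Log2 signal of the ORC, RFC and PCNA genes on each array, drawn as for the MCM genes (WT blue, MADS29_KD orange, black bars mean and SD of 3 arrays, dashed line the highest background level). *OsORC3* and *OsORC5* drop under the line in MADS29_KD, *OsRFC1* overlaps, and *OsRFC2* to *OsRFC5* and *OsPCNA* are separate.

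RPA is a trimer of a large (RPA70), a middle (RPA32) and a small (RPA14) subunit, and rice carries several copies of the first 2 that assemble by type. Type A joins *OsRPA70a* with *OsRPA32-2* and is found in chloroplasts, type B joins *OsRPA70b* with *OsRPA32-1* and is nuclear, type C joins *OsRPA70c* with *OsRPA32-3*, and all use *OsRPA14*. Of the type B pair, *OsRPA32-1* was chosen for its fall, and *OsRPA70b* was added by family name.

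*OsRPA70b* (4332052) read 4.91, 4.67 and 4.82 in WT and 2.97, 3.02 and 3.00 in MADS29_KD. Its MADS29_KD arrays lay close to each other and just above background. The difference was −1.81 ± 0.07, 3.50-fold lower (adjusted p = 0.000445), the smallest adjusted p among the 22 tested genes, and it was called in all 15 alternative fits. *OsRPA32-1* (4331236), the gene that the table also lists as *OsRPA32*, read 5.25, 5.65 and 5.34 in WT and 3.79, 3.07 and 2.76 in MADS29_KD. It was 4.61-fold lower (−2.21 ± 0.30), with the widest spread among MADS29_KD arrays in the whole set (SD 0.53, n = 3) and its lowest array at background. As 1 of the 4 genes named outright it carries no test.

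The type A genes differed less. *OsRPA70a* (4330902) read 4.03, 4.34 and 4.11 in WT and 4.59, 4.19 and 4.07 in MADS29_KD, and the groups overlapped. Its difference of 0.12 had a 95% interval from −0.31 to 0.56 (adjusted p = 0.567), and it became −0.03 without MADS29_KD replicate 1, the highest array. *OsRPA32-2* (4330068) read 5.36, 5.23 and 5.40 against 5.16, 4.78 and 4.73, or −0.44 ± 0.13 (adjusted p = 0.115). All its MADS29_KD arrays were below WT, and without MADS29_KD replicate 1 the gene was called lower (−0.58, adjusted p = 0.0180).

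Of type C, *OsRPA70c* (4337594) read 4.50, 4.002 and 4.37 in WT and 3.65, 3.65 and 3.58 in MADS29_KD, a difference of −0.66 ± 0.14 with an adjusted p of 0.0501, just outside the threshold. Its lowest WT array was replicate 2, without which it was called lower (−0.81, adjusted p = 0.00548). *OsRPA32-3* (9266781) was dim throughout, at 2.95, 3.05 and 2.83 in WT and at background in MADS29_KD at 2.61, 2.87 and 2.61, and it was not called (adjusted p = 0.175). Its groups overlapped by 1 array.

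*OsRPA14* (4327706), the small subunit common to the 3 types, read 7.99, 8.45 and 7.95 in WT and 7.43, 7.22 and 7.30 in MADS29_KD, 1.75-fold lower (−0.81 ± 0.16, adjusted p = 0.0408). The groups did not overlap. The call held only when WT replicate 2 was the array left out, and the adjusted p was 0.0940 without WT replicate 1, 0.0844 without WT replicate 3 and 0.0849, 0.131 and 0.117 without each MADS29_KD array in turn.

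Set against its type A counterpart on the same array, the type B large subunit (*OsRPA70b* over *OsRPA70a*) had log2 ratios of 0.88, 0.33 and 0.72 in WT and −1.62, −1.17 and −1.07 in MADS29_KD. The middle subunits (*OsRPA32-1* over *OsRPA32-2*) had ratios of −0.11, 0.41 and −0.06 in WT and −1.37, −1.71 and −1.97 in MADS29_KD. On every array the ratio was lower in MADS29_KD, by −1.93 and −1.76 on average. Relative to the shared *OsRPA14*, the changes were −0.999 for *OsRPA70b* and −1.40 for *OsRPA32-1*. The ratios with *OsRPA32-1* hold a chosen gene, and none of these ratios was tested.

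**Figure D4:**
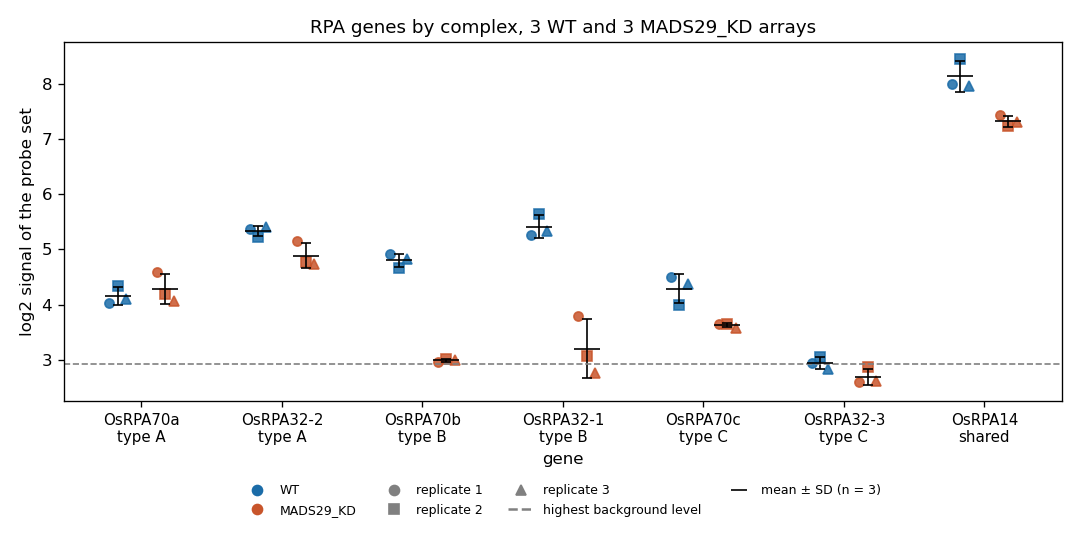
Log2 signal of the 7 RPA genes on each array, ordered by the type of complex (WT blue, MADS29_KD orange, black bars mean and SD of 3 arrays, dashed line the highest background level). The groups are separate for *OsRPA70b* (−1.81) and for *OsRPA32-1* (−2.21), the latter chosen for its fall. They are also separate, by less, for *OsRPA32-2* (−0.44), *OsRPA70c* (−0.66) and *OsRPA14* (−0.81), and overlap for *OsRPA70a* and *OsRPA32-3*.

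Many of the genes also had the same order among arrays of a group. WT replicate 2 held the highest WT value for 18 of the 26 genes, and MADS29_KD replicate 1 held the highest MADS29_KD value for 18 of 26. These are the 2 arrays with the 5′ actin signal at background. Over all probe sets their deviations from the group means correlated at 0.65, so the 2 arrays deviated alike well beyond this set. The share of all genes with this order was not counted. MADS29_KD replicate 3 was the highest of its group for 0 genes and the lowest for 15. The median over the 26 genes was 5.31, 5.41 and 5.27 on the WT arrays and 3.80, 3.65 and 3.61 on the MADS29_KD arrays, so this order was small beside the difference between groups. On the 4 arrays with alike 5′ actin signal 14 of the 22 tested genes were called lower and 7 of them with at least 2-fold. The median over the 26 was −0.99. Over all probe sets that fit called 3474 of 57194 lower.

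Some other genes that act at or behind the fork were also called lower. Over 13 genes for DNA synthesis and strand joining, nucleotide supply, S phase regulation and chromatin assembly, 5 were called lower and 0 higher, with a median of −0.36, against 14.8% lower and 10.8% higher over all genes and 20.5% and 14.7% among those above background. No gene matched by name among the partners of licensing and of the helicase. Of the 8 synthesis and joining genes 4 were called lower, with a median of −0.42. *OspolD1*, the catalytic subunit of DNA polymerase δ, read 3.75, 3.30 and 3.72 in WT and was at background in MADS29_KD at 2.46, 2.40 and 2.40. It was at least 1.62-fold lower (adjusted p = 0.00852), and its groups were clearly apart. Its probe set is of a kind that can match several transcripts. The gene was measured in 14 of the 15 alternative fits, and its call was lost in 1 of them.

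The flap endonucleases, which trim the ends of Okazaki fragments, were called with less margin. *FEN1B* read 6.44, 6.83 and 6.45 against 5.81, 5.40 and 5.29 (−1.07 ± 0.19, adjusted p = 0.0305), and *FEN1A* read 4.65, 4.42 and 4.63 against 3.93, 3.91 and 4.10 (−0.59 ± 0.09, adjusted p = 0.0195). Neither pair of groups overlapped. The *FEN1B* call was lost without any of the WT arrays (0.0854, 0.0674 and 0.0945 for replicates 1, 2 and 3) and without MADS29_KD replicate 2 (0.108) or 3 (0.0885). It also did not hold when probe sets that can match several transcripts were left out, where another probe set of the gene gave −0.69 (adjusted p = 0.0841). The *FEN1A* call was lost without WT replicate 1 (0.0760) or 3 (0.0847) and without MADS29_KD replicate 1 (0.0651) or 2 (0.0758), and also after quantile normalization (0.0681).

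*TOP6B*, a subunit of topoisomerase VI, which in Arabidopsis is required for endoreduplication, read 3.57, 4.17 and 3.83 in WT and 2.90, 2.83 and 3.03 in MADS29_KD, a difference of −0.94 ± 0.17 (adjusted p = 0.0326). The groups were separate, with 2 MADS29_KD arrays at background. Its call did not hold without WT replicate 3 or MADS29_KD replicate 1, 2 or 3 (0.119, 0.0943, 0.113 and 0.0834), nor on the 4 arrays with alike 5′ actin signal (0.0825). The A subunits *OsTOP6A* (0.05, adjusted p = 0.601) and *OsTOP6A2* (−0.07, adjusted p = 0.409) were not called.

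Chromatin assembly factor 1 places histones on newly copied DNA, and its 2 measured subunits lay below WT on every array. *FAS2* read 4.05, 3.98 and 3.93 in WT and 3.23, 2.89 and 3.00 in MADS29_KD, a difference of −0.95 ± 0.10 (adjusted p = 0.00633) that was called in all 15 alternative fits. *MSI1*, a histone-binding subunit that also serves in other chromatin complexes, read 8.35, 8.78 and 8.32 against 7.93, 7.47 and 7.41 and was not called (−0.88 ± 0.20, adjusted p = 0.0657), though it was without MADS29_KD replicate 1 (adjusted p = 0.0474). Thymidine kinase *TK* (−0.36, adjusted p = 0.168) and the retinoblastoma-related *OsRBR2* (0.36, adjusted p = 0.105) were not called, and *OsRBR1* was at background on all 6 arrays.

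Among 9 genes of DNA repair and recombination 2 were called lower and 1 higher, with a median of −0.22. These counts were near the shares over genes above background, 20.5% lower and 14.7% higher. *KU70*, which binds broken DNA ends, read 4.83, 5.02 and 4.58 against 3.65, 3.41 and 3.68 (−1.23 ± 0.14, adjusted p = 0.00837). *xrcc1*, a scaffold of base excision repair, was lower by −1.03 ± 0.20 (adjusted p = 0.0391), a call that was lost whichever of the 6 arrays was left out (adjusted p = 0.0689 to 0.113). *PARP-3*, a poly(ADP-ribose) polymerase gene, moved the opposite way, at 3.53, 3.46 and 3.40 in WT and 5.83, 5.82 and 5.35 in MADS29_KD, 4.61-fold higher (2.21 ± 0.15, adjusted p = 0.00190). Its groups were far apart, and it was called in all 15 alternative fits.

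**Figure D5:**
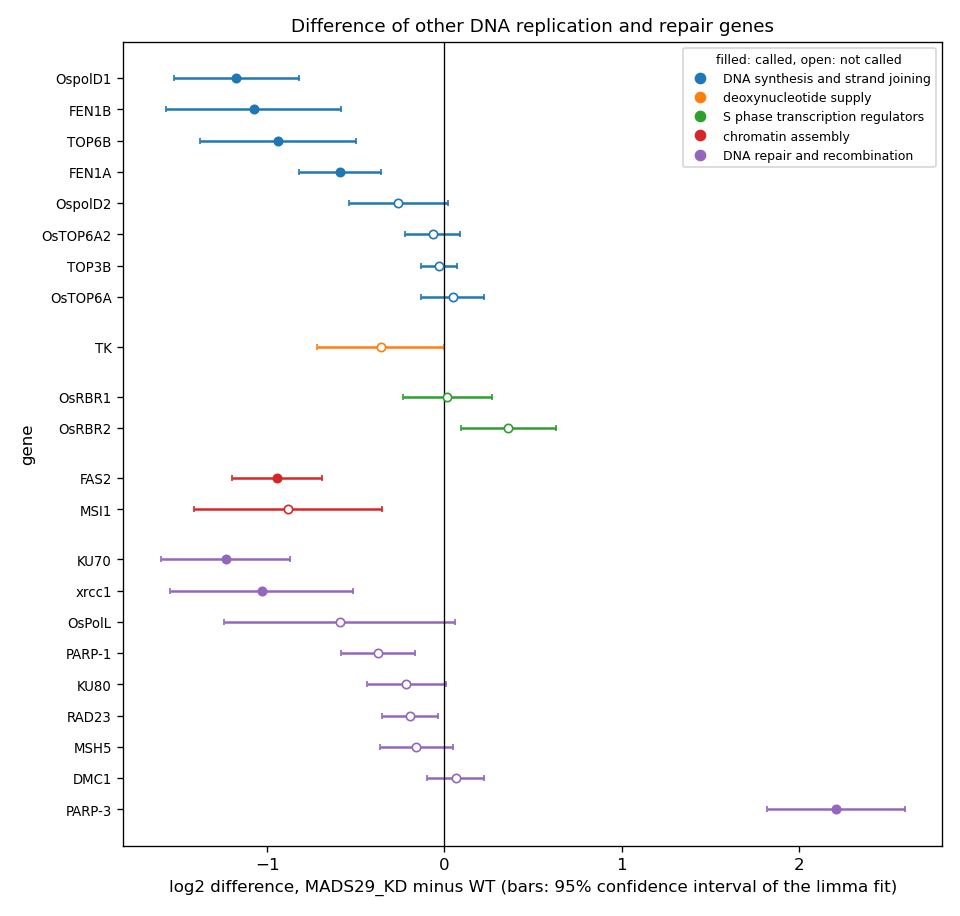
Log2 difference between MADS29_KD and WT for 22 further genes of DNA replication and repair, grouped by role, with the 95% confidence interval of the limma fit. Filled points were called. Apart from *PARP-3* at 2.21, the called genes lie between −1.23 (*KU70*) and −0.59 (*FEN1A*).

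Of 40 cyclin, cyclin-dependent kinase and inhibitor genes 8 were called lower and 2 higher, with a median of −0.13. Among genes above background 20.5% were called lower and 14.7% higher, so the count of lower genes was near that share and that of higher genes below it. Over all genes the shares were 14.8% and 10.8%. The B-type cyclin *CYCB2-2* was at least 3.04-fold lower (adjusted p = 9.59e-05), the A-type *CYCA2-1* at least 1.57-fold (0.000394), the P-type *CYCP4-1* at least 2.16-fold (0.00793) and the D-type *CYCD5-3* at least 2.07-fold (0.00843). The kinase inhibitor gene *KRP6* was higher by 1.48 ± 0.23 (0.0206), and *CDKE-1*, a kinase of the Mediator complex, by 0.52 ± 0.11 (0.0480). The call of *KRP6* held when WT replicate 2 was left out and was lost when any other array was (adjusted p = 0.0525 to 0.0843), and that of *CDKE-1* held only when MADS29_KD replicate 3 was the array left out (0.0812 to 0.145 for the others).

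Markers of seed tissues moved between the same groups. As a check of the labelled tissue, 11 of 12 endosperm genes were above background. Of the 12, 8 were called higher and 0 lower, with a summed signal of 57849 to 67375 in WT and 96918 to 99523 in MADS29_KD. Of 8 embryo and maturation genes 5 were called higher, and the summed signal of the 8 was 396 to 464 in WT and 5847 to 6142 in MADS29_KD. In MADS29_KD that sum was made up mostly of *EM*, *RAB21* and *LEA19* (mean log2 11.17, 11.11 and 10.39). *OSH1* (−0.11), *RAB16C* (0.57) and *RAB16D* (0.27) were not called. The 3 genes of green pericarp summed to 7919 to 8377 in WT and 3359 to 3904 in MADS29_KD, a sum made up almost wholly of *CAB2R*, which was called lower. *OsrbcS* (−0.23) and *RBCS1* (0.12, at background on all WT arrays) were not called. Of 3 nucellus and cell death genes *OsMADS29* and *ASP1* were called lower and *OsVPE1* higher. Their sums, 692 to 749 in WT and 1291 to 1349 in MADS29_KD, were made up mostly of *OsVPE1*. Of 5 anther genes *C6*, *RTS* and *TDR* were at background on all arrays, 1 was called higher, and the sums were 111 to 139 in WT and 162 to 197 in MADS29_KD. The part of these tissues in the lower replication transcripts was not tested.

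The average profile of the 4 genes named outright served to order the others by likeness, as the Euclidean distance between log2 profiles over 6 arrays, each centred on its gene mean. Within the set the nearest were *OsMCM7* (0.80), *OsMCM3* (0.82), *OsRFC5* (0.84) and *OsRPA70b* (0.86), and the farthest were *OsMCM8* (3.01) and *OsRPA70a* (3.08). Among 2432 named genes outside the set the nearest were *CSLA9* (0.35), which read 5.61, 5.90 and 5.58 in WT and 3.17, 3.09 and 3.15 in MADS29_KD, *OsTF1* (0.37), *KIN14N* (0.42), *Nramp1* (0.45), *PRMT1* (0.53) and *TYW1* (0.54). These genes resemble the average because each is lower by a like amount, between −2.56 for *CSLA9* and −2.03 for *PRMT1*, or at least 5.05-fold for *Nramp1*, whose MADS29_KD arrays were all at background. Such a likeness over 2 groups of arrays rests mainly on the difference between groups and is a description.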

How the data were processed

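For each array the authors deposited intensities per probe set on a linear scale, from 3.98 to 16101, with array medians of 6.05 to 6.18. How the authors corrected background and normalized, and in which software, is not given in the sources used here, and the values were not normalized again. After 123 AFFX and 64 reporter controls were left out, log2 intensities of 57194 probe sets were compared with limma 3.58.1 (lmFit, eBayes) in R 4.3.3. In the annotation 22436 of them had 1 gene, 95 had more than 1 and 34663 had none listed. Genes were named through the platform annotation and the RefSeq gene table of assembly ASM3414082v1. A letter or a hyphenated number after the family number was accepted (*OsRPA70a*, *OsRPA32-2*). Each gene was given by its probe set with the highest mean, of 30 in the set. Background was the 95th percentile of 74 foreign probe sets (64 reporter and 10 fungal) per array. Where all MADS29_KD arrays, or some arrays and the mean, were at background, the fold is an "at least" bound against that level.

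The genes, lists and markers were chosen with earlier results of these data known. The text names every gene of the set, up to 4 genes called lower and 4 called higher per further list, and the 6 genes nearest in profile. The precision is limited by 3 arrays per group. The scripts were tested on simulated data. The 15 alternative fits covered quantile normalization, median centring, a background filter, an intensity trend, a replicate block, array weights, the 5′ actin class, probe sets with the suffixes x_at and s_at left out, and each array left out.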

Additional observations from a re-analysis of the deposited data

How the results depend on the processing

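The falls of the set kept their direction in all 15 alternative fits, with a median between −1.08 and −0.97 against −1.02, and *OsMADS29* stayed between −2.23 and −1.82. Against 12 genes called lower, 17 of 21 measured were called when only probe sets above background on at least 3 arrays were kept. *OsORC3*, *OsORC5* and *OsRPA32-3* passed this filter only through their WT arrays, so that count is not separate support. With the 5′ actin class as a block 15 were called. Over all probe sets these fits called 5230 of 19928 and 4577 of 57194 lower, against 3589 of 57194 in the main fit. The number in each sample's name does not pair the samples by the labels, and deviations of same-numbered arrays correlated at −0.51, −0.51 and 0.40. With this replicate block the count fell to 2 (*OsORC3* and *OsRPA70b*), to 1 with 2-fold, and to 1 among the other replication genes, *OsMADS29* had an adjusted p of 0.0796 at −1.96, and all probe sets gave 1143 lower and 997 higher in place of 3589 and 2901. Array weights added 1 gene called higher in the set (*OsMCM8*, adjusted p = 0.0478, at background) and 1 outside it (*OsRBR2*, 0.0488). The background filter also called *OsRBR2*, making 1 higher, and without x_at and s_at probe sets 3 other replication genes were lower. With 1 array left out, 9 to 11 genes of the set were called lower, 7 to 9 with 2-fold and 0 higher, with medians of −1.05 to −0.97, 2 to 4 other replication genes were lower, and *OsMADS29* lay between −2.17 and −1.82. Without 1 array the count over all probe sets went down to 2097 lower (without WT replicate 3) and 1499 higher. Of the calls over all probe sets 55.3% were lower, against 50.0% after quantile normalization and 46.1% with array weights. Signs turned only in genes that were not called. *OsRBR1* (0.02) became −0.00036 after median centring and −0.051 on the 4 arrays with alike 5′ actin signal, and lay between −0.080 and 0.074 with 1 array left out. *OsRPA70a* lay between −0.028 and 0.23, *OsTOP6A* between −0.019 and 0.11 and *TOP3B* between −0.060 and 0.0032 with 1 array left out. After quantile normalization *OsTOP6A2* was 0.00031 and *TOP3B* 0.062. The cause was not tested. Signals near background limit *OsMCM8*, *OsMCM9*, *OsORC1*, *OsORC3*, *OsORC4*, *OsORC5* and *OsRPA32-3*.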
